A study of Homo sapiens and Mus musculus with 100 samples.

Results

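This section describes 10 genes that make, conjugate, carry or sense bile acids, in cells and livers kept with or without vitamin B2 (riboflavin). They were chosen by name, as the rows whose symbol is CYP7A1, CYP8B1, CYP27A1, BAAT, SLC27A5, SLC10A1, ABCB11, NR1H4, NR0B2 or FGF19 in the human tables, among 28035 listed genes, and as the mouse symbols with Fgf15 for FGF19, among 24940. All 10 were listed in each of the 8 tables. The study asked how lack of vitamin B2 acts on liver cells through AhR (aryl hydrocarbon receptor), which switches genes on when a ligand binds it.

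The human liver cancer line HepG2 was kept with vitamin B2 (control) or without it (deprived) and sampled at days 3, 6, 9 and 12. Further HepG2 experiments ended at day 12 and combined deprivation with an AhR inhibitor (10 µM in the column headers of that table), with an IDO/TDO inhibitor (against enzymes that start kynurenine production from tryptophan), or with an AhR guide RNA beside a control guide RNA. Another treated HepG2 for the same time with Kyn or with the solvent DMSO, each with and without an AhR inhibitor. Kyn is the label's word, read here as kynurenine, a tryptophan product known as an AhR ligand, and the labels of that experiment do not say what the medium held of vitamin B2. The colon cancer line Caco-2 was sampled at day 9, control and deprived. Mouse hepatocytes carrying floxed AhR, labelled 4 weeks, were control or deprived and received Ad-Cont or Ad-Cre, the vector that carries the recombinase Cre. The labels list the 4 weeks under treatment and do not say whether the donors of these hepatocytes were deprived before isolation, the cells afterwards, or both. Mouse liver, labelled 4 weeks, came from control and deprived animals. Each cell group held 3 libraries and each liver group 4 columns. Names of the inhibitors, the Kyn dose, the guide's site, whether the guided cells were a pool or a clone, the floxed exon and the animals' strain and sex were not stated in the labels or column headers. The labels do not say that replicates were grown or dissected separately, so each p-value rests on the spread of the libraries at hand. This spread may be technical.

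Bile acids are made from cholesterol in hepatocytes. CYP7A1 starts the classic route and sets its rate, CYP8B1 adds the hydroxyl group that directs synthesis towards cholic acid, and CYP27A1 starts the acidic route in mitochondria. SLC27A5 activates bile acids to their CoA forms and BAAT joins these to glycine or taurine. SLC10A1 (NTCP) takes bile acids up from blood and ABCB11 (BSEP) exports them into bile. NR1H4 (FXR) is the nuclear receptor that senses bile acids. It induces NR0B2 (SHP), a repressor of synthesis, in liver, and FGF19 (mouse Fgf15), a hormone that signals to the liver to lower synthesis, in the intestine.

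Values are TPM, reads scaled by transcript length and library total, as deposited, given in replicate order with the control or untreated group first. The library kit named in the labels reads the 3' ends of transcripts, so levels are compared between groups of 1 gene and not between genes. The tables held 4049600 to 19644000 reads per library, as recovered from the TPM steps. The AhR target CYP1A1 followed the labels of the guide RNA experiment: it was 3.75 to 4.45 TPM in controls, 32.0 to 36.2 in deprived cells, and with the AhR guide RNA 1.84 to 1.92 and 1.16 to 2.22. AHR mRNA itself was not lower with the guide RNA (6.07 to 8.26 TPM in deprived cells without it and 7.06 to 8.09 with it), and reads at its 3' end do not test a cut elsewhere in the gene. In deprived cells CYP1A1 was 14.3 to 15.2 TPM without and 1.33 to 1.82 with the AhR inhibitor, and 20.7 to 23.9 without and 8.24 to 9.74 with the IDO/TDO inhibitor. It was 1.5 to 1.86 under DMSO and 1.77 to 2.46 under Kyn. Mouse Ahr was 9.32 to 10.0 TPM with Ad-Cont and 7.13 to 8.29 with Ad-Cre in control hepatocytes, where 3' reads may lie outside the deleted exon. In the AhR inhibitor experiment all libraries with the inhibitor carry another date and directory in their column headers than those without, so inhibitor and date cannot be told apart there. Replicate 3 of the controls with the inhibitor stood apart from the other two.

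On the log2(TPM + 1) scale BAAT had the largest drop among the 7 genes tested at day 12 of the time course (-1.81, and -1.07 for CYP8B1, next to it), while with a pseudocount of 0.1 CYP8B1 fell by more (-2.37, adjusted p = 7.71e-05 against -2.15, adjusted p = 6.4e-09). The genome around 2 listed starts of BAAT is shown for orientation. The deposited BAAT transcript, NM_001701, spans chromosome 9 from 101360417 to 101385005 on the minus strand (build hg38). From RefSeq's promoter table (GRCh38.p14), 7 windows covering 6 of the 10 genes were searched. No window of CYP7A1, CYP8B1, NR0B2 or FGF19 was searched, so their absence here does not show whether RefSeq's promoter table lists them. For BAAT it lists 2 starts inside the span of NM_001701. The first line gives the 250 bases before the upstream start, at chr9:101383874-101384123, and the second 30 bases at chr9:101383588-101383617 before the downstream start, both 5' to 3' on the minus strand.
BAAT upstream window: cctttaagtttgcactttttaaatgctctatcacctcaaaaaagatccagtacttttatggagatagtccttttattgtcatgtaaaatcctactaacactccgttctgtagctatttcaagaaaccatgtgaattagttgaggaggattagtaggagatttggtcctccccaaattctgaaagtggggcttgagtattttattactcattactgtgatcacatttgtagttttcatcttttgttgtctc
BAAT downstream window, 30 bases: agaggtatgtggTGACCTagcacttaagtt
The capitals mark TGACCT, which reads AGGTCA, a nuclear receptor half-site, on the other strand and lies 41 bases before the downstream start. It was the only match in BAAT's 2 windows of 250 bases to the 5 motifs searched on both strands. Those were GCGTG (the core of the AhR response element, in 32.2% of 35116 windows of that length), AGGTCA (12.1%), CAAGGTCA (1.14%, which contains AGGTCA), CAAAGTCCA (0.325%) and GTTAAT (6.23%). AGGTCA also matched in 2 other members' windows, 230 bases before the start of NR1H4 and 149 before that of SLC10A1. GTTAAT matched 53 bases before the NR1H4 start. The windows of ABCB11, CYP27A1 and SLC27A5 had no match, and GCGTG had none in any of the 7 windows. Both BAAT windows lie inside the span of NM_001701, and the bases before its own start, at 101385005, are in neither. The motifs were chosen after the values were seen, and a match is a description of letters and no evidence of binding.

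In the HepG2 time course, deprivation lowered none of the 7 measurable genes at day 3, where 2.00% of all genes were lower, and all 7 at day 12, where 18.4% were lower and 34.0% higher. CYP8B1 fell first, at day 6. BAAT followed at day 9, and by day 12 its mean was 2.3 TPM in deprived cells and 10.8 TPM in controls. Of these, 5 were rising in the control cultures: BAAT, CYP7A1, CYP8B1, NR1H4 and NR0B2 rose from day 3 to day 12 with vitamin B2 present. SLC10A1, ABCB11 and FGF19 were too low in HepG2 to pass the filter, which asked for 1 TPM in 3 libraries.

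**Figure D1:**
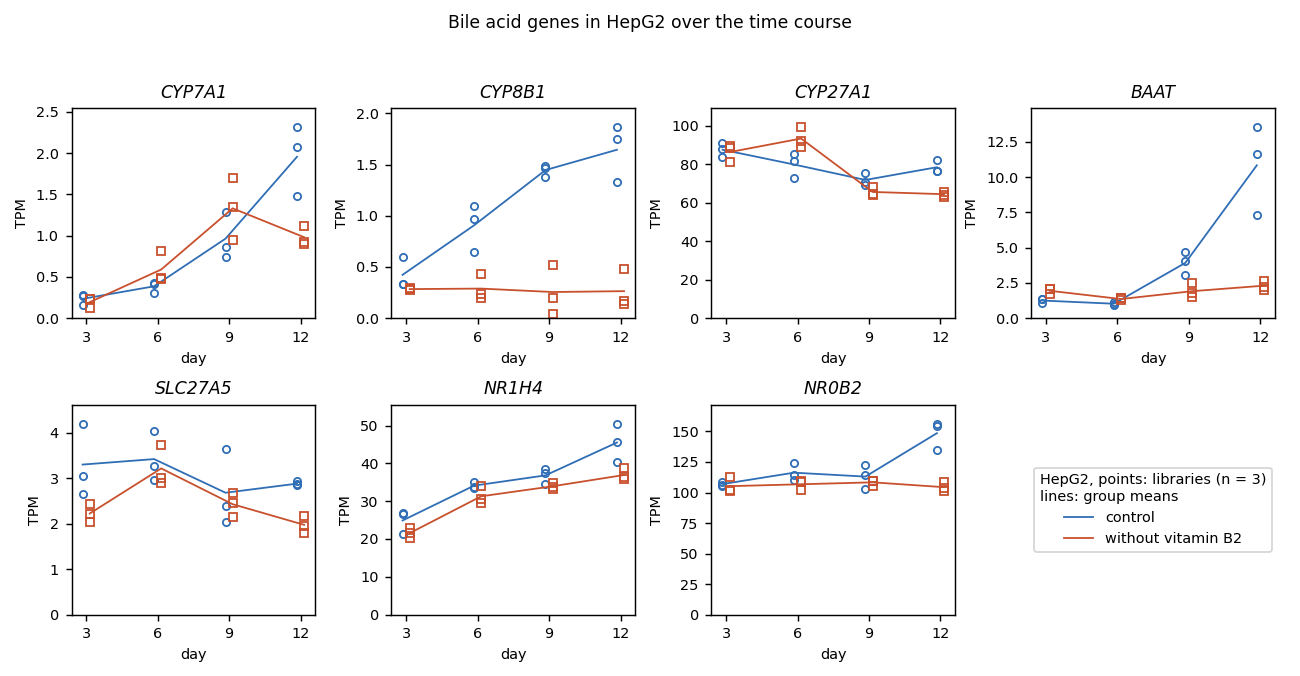
TPM (y axis) against day (x axis) for the 7 measurable genes in HepG2, 1 panel a gene, with 1 point per library and lines through the group means, control and deprived. At day 12 the lowest control library lay above the highest deprived library for all 7 genes, as for 21.9% of all genes.

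At day 3 the test across 12488 genes called 0 of 7 (limma on log2(TPM + 1), 3 at an unadjusted p under 0.05, 0 by voom), where 2.74% of all genes were higher and 2.00% lower. After rescaling the listed genes to a common total these shares were 3.2% higher and 1.43% lower. BAAT read 1.36, 1.04 and 1.34 TPM in the 3 controls and 2.06, 1.7 and 2.07 in the deprived libraries, which did not overlap and lay above the controls (log2 fold change 0.39, SE 0.16, adjusted p = 0.183). Groups did not overlap for 24.9% of all genes. NR1H4, not called (log2 fold change -0.19, SE 0.083, adjusted p = 0.213), passed without control replicate 3 (-0.3, adjusted p = 0.041).

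At day 6, 2 of 7 passed, 1 in each direction, beside 19.0% of genes higher and 14.0% lower. CYP8B1 was 0.973, 0.648 and 1.1 TPM in controls and 0.197, 0.435 and 0.234 in deprived cells, every deprived library below every control, as for 18.7% of all genes (log2 fold change -0.56, SE 0.15, adjusted p = 0.00454). CYP27A1 was the one gene that rose, from 81.5, 72.8 and 85.2 to 99.1, 91.8 and 89.0 TPM (log2 fold change 0.22, SE 0.06, adjusted p = 0.00572). At day 9, 2 of 7 were lower, against 19.7% of genes lower and 29.4% higher (41.3% higher and 14.0% lower by voom). After quantile normalization 4 were lower, with CYP27A1 (-0.21, adjusted p = 0.00797) and NR0B2 (-0.19, adjusted p = 0.0128) added. CYP8B1 stood at 1.49, 1.38 and 1.47 TPM in controls and 0.522, 0.043 and 0.2 in deprived cells (log2 fold change -0.98, SE 0.15, adjusted p = 7.35e-06). BAAT, above control at the earlier days without passing the test, was now 4.05, 4.69 and 3.03 TPM in controls and 1.77, 2.46 and 1.51 in deprived cells, with no overlap, as for 54.1% of all genes (log2 fold change -0.76, SE 0.16, adjusted p = 0.000364). CYP7A1 did not pass at day 9 (log2 fold change 0.24, SE 0.14, adjusted p = 0.149) except without deprived replicate 1 (0.37, adjusted p = 0.0465).

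By day 12 all 7 genes were lower. None overlapped between groups, as was so for 60.2% of all genes (21.9% below the controls and 38.3% above), and 18.4% of all genes were lower and 34.0% higher (26.6% higher and 24.8% lower after quantile normalization, 47.2% higher and 14.5% lower by voom). Of the synthesis genes, CYP7A1 was 2.07, 1.48 and 2.31 TPM in controls and 0.919, 1.12 and 0.903 in deprived cells (log2 fold change -0.57, SE 0.14, adjusted p = 0.00139). CYP8B1 was 1.75, 1.86 and 1.33 TPM in controls and 0.167, 0.482 and 0.142 in deprived cells (log2 fold change -1.07, SE 0.15, adjusted p = 1.77e-06). The pseudocount of 1 TPM compresses a gene this low, which had 8 to 29 reads per deprived library, and with 0.1 TPM the fold change was -2.37, adjusted p = 7.71e-05. CYP27A1, of the acidic route, changed little, from 82.2, 76.3 and 76.6 to 64.2, 65.8 and 63.1 TPM (log2 fold change -0.28, SE 0.06, adjusted p = 0.000426).

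In the conjugation pair, BAAT was 11.6, 13.5 and 7.35 TPM in controls and 2.03, 2.64 and 2.24 in deprived cells at day 12 (log2 fold change -1.81, SE 0.16, adjusted p = 1.92e-09). Control replicate 3 was the lowest of its group and still lay above every deprived library. SLC27A5 was 2.87, 2.85 and 2.94 TPM against 1.81, 1.95 and 2.17 (log2 fold change -0.39, SE 0.14, adjusted p = 0.0227). That call was lost without control replicate 3 or without deprived replicate 1 or 2 (adjusted p 0.0529 to 0.0768) and by voom (-0.41, adjusted p = 0.0596).

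The sensors were also lower at day 12. NR1H4 was 45.7, 40.4 and 50.5 TPM in controls and 38.7, 36.3 and 35.8 in deprived cells (log2 fold change -0.29, SE 0.083, adjusted p = 0.00551), and after rescaling it no longer passed (-0.2, adjusted p = 0.0519). NR0B2 was 155, 156 and 135 TPM against 103, 101 and 109 TPM (log2 fold change -0.5, SE 0.065, adjusted p = 7.84e-07). Markers of hepatocytes moved the same way: 7 of 8 (ALB, APOA1, TTR and the like) were lower and 1 higher at day 12, and their summed level was 28939 to 30489 TPM in controls and 8386 to 8698 in deprived libraries. Among markers of other cells, 2 of 3 cholangiocyte markers tested were higher and 1 lower (sums 241 to 255 TPM in controls and 299 to 303 in deprived libraries), and 1 of 2 macrophage markers was higher (9.8 to 10.9 and 16.2 to 16.8). HepG2 is a single cell line, so these lists describe expression in its cells and do not count cell types. Bulk RNA does not show whether all of its cells or some of them changed. The part of these shifts in the members' values was not tested.

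Between day 3 and day 12 the controls gained 5 of the 7 transcripts and lost 1, while 20.1% of genes were higher and 46.8% lower (31.5% higher and 32.0% lower after quantile normalization, which moved the median of all genes from -0.21 to 0). BAAT went from 1.36, 1.04 and 1.34 to 11.6, 13.5 and 7.35 TPM (log2 fold change 2.36, SE 0.16, adjusted p = 9.01e-12) and CYP7A1 from 0.158, 0.278 and 0.265 to 2.07, 1.48 and 2.31 TPM (log2 fold change 1.25, SE 0.14, adjusted p = 4.15e-08). CYP8B1 rose by 0.89 ± 0.15 on the log2 scale (± SE), NR1H4 by 0.85 ± 0.083 and NR0B2 by 0.47 ± 0.065. CYP27A1 fell slightly (log2 fold change -0.16, SE 0.06, adjusted p = 0.025), a call that turned its sign after quantile normalization (0.12, adjusted p = 0.0976) and was lost without replicate 2 or 3 of either day (adjusted p 0.0571 to 0.0989). All 8 hepatocyte markers rose over this time in controls, from sums of 7076 to 7177 to 28939 to 30489 TPM, and their part was not tested.

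In deprived cells 3 of 7 passed from day 3 to day 12 (all genes: 14.4% higher and 35.3% lower, 23.1% higher and 23.1% lower after quantile normalization). CYP7A1 rose (log2 fold change 0.73, SE 0.14, adjusted p = 0.000133), NR1H4 rose (log2 fold change 0.75, SE 0.083, adjusted p = 1.13e-07) and CYP27A1 fell (log2 fold change -0.41, SE 0.06, adjusted p = 4.88e-06). BAAT did not pass (log2 fold change 0.17, SE 0.16, adjusted p = 0.406), and neither did CYP8B1 (log2 fold change -0.033, SE 0.15, adjusted p = 0.873). The difference between the deprivation effects of day 12 and day 3 passed for 5 of 7, where 37.7% of genes passed. BAAT differed by -2.2, SE 0.22, adjusted p = 6.71e-08 and CYP8B1 by -0.93, SE 0.21, adjusted p = 0.00106, and NR0B2 by -0.48, SE 0.091, adjusted p = 0.000241. CYP27A1 (-0.26, SE 0.085, adjusted p = 0.0191) lost its call after rescaling (-0.19, adjusted p = 0.0733), by voom (-0.13, adjusted p = 0.184) and without replicate 1 of day 3 control, day 3 deprived or day 12 control (adjusted p 0.0528 to 0.0553). CYP7A1 (-0.52, SE 0.2, adjusted p = 0.0393) lost it after rescaling (-0.61, adjusted p = 0.121), by voom (-0.61, adjusted p = 0.444), with no filter (-0.52, adjusted p = 0.0503) or with a pseudocount of 0.1 (-0.73, adjusted p = 0.183). It was also lost without any 1 of 8 of the 12 libraries (adjusted p 0.0515 to 0.107), the exceptions being day 3 control replicate 2, day 3 deprived replicate 3, day 12 control replicate 2 and day 12 deprived replicate 2.

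Day 12 deprivation was repeated in the untreated or control-guide arms of 3 further HepG2 experiments, which share no libraries with the time course. CYP7A1, CYP8B1 and CYP27A1 were lower in all 4. BAAT was lower in 3 and higher in the AhR inhibitor experiment, and NR1H4 was lower in the time course but higher in 2 others. The members called numbered 7 in the IDO/TDO inhibitor experiment (6 lower, 1 higher), 6 in the AhR inhibitor experiment (5 lower, 1 higher) and 5 in the guide RNA experiment (4 lower, 1 higher). Of all genes 14.3% were lower and 53.6% higher in the first (30.6% higher and 27.2% lower after quantile normalization), 16.9% lower and 44.6% higher in the second (28.9% higher and 26.7% lower), and 17.1% lower and 43.6% higher in the last (28.5% higher and 26.1% lower). The median over all genes moved with that scaling, from 0.3 to 0.024, from 0.23 to 0.026 and from 0.2 to 0.024 on the log2 scale, so relative to the median gene each fall was larger, and each rise smaller, than the values given. For the time course it moved from 0.1 to 0.0014 at day 12, with the AhR inhibitor from 0.24 to 0.026 and with the AhR guide RNA from 0.15 to 0.016. Hepatocyte markers were 7 of 8 lower and 1 higher in each of these 3 arms, their sum reaching 34571 to 36243 TPM in controls and 9665 to 9946 in deprived cells of the IDO/TDO inhibitor experiment. Of 3 cholangiocyte markers tested 2 were higher in each arm (sums 96.6 to 116 and 184 to 192 TPM in that experiment), and of 2 macrophage markers 1 (13.0 to 16.9 and 25.1 to 25.9 TPM). In the guide RNA arm 1 cholangiocyte marker was also lower. With the IDO/TDO inhibitor none of these 5 genes passed. With the AhR inhibitor 1 cholangiocyte marker was higher, and of the macrophage markers 1 was higher and 1 lower. With the AhR guide RNA 2 cholangiocyte markers were higher and 1 lower, and both macrophage markers were higher. Kyn changed none without its inhibitor and lowered 2 cholangiocyte markers with it. The part of these lists was not tested.

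**Figure D2:**
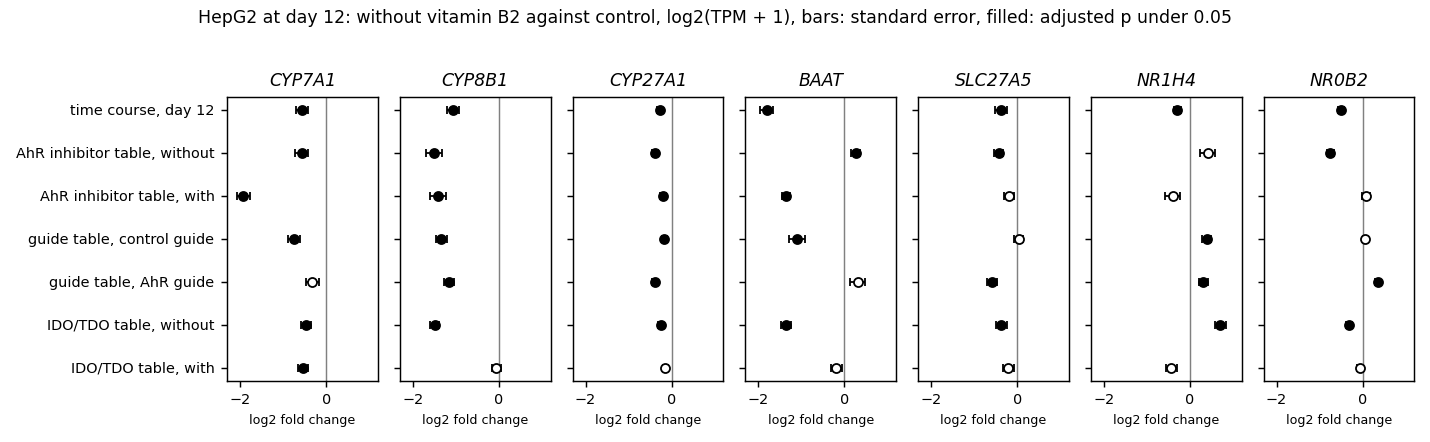
Log2 fold changes of deprived over control cells at day 12 (x axis, bars are SE) for the 7 measurable genes in 4 HepG2 experiments, 1 line for each arm without or with a modulator. Points are filled where the adjusted p was under 0.05. Without a modulator CYP8B1 lies between -1.51 and -1.07 in all 4, whereas BAAT runs from -1.81 in the time course to 0.26 in the AhR inhibitor experiment.

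CYP8B1 fell in each of these experiments without a modulator, and read 2.72, 2.32 and 3.31 TPM in controls and 0.435, 0.307 and 0.277 in deprived cells of the IDO/TDO inhibitor experiment (log2 fold change -1.49, SE 0.11, adjusted p = 5.39e-09). In the AhR inhibitor experiment it was 2.37, 2.51 and 2.1 TPM against 0.184, 0.156 and 0.148 TPM (log2 fold change -1.51, SE 0.18, adjusted p = 1.42e-05), and in the guide RNA experiment 2.25, 2.62 and 2.19 TPM against 0.217, 0.316 and 0.436 TPM (log2 fold change -1.34, SE 0.13, adjusted p = 6.43e-07). No group overlapped with its partner, as was so for 70.6%, 68.6% and 64.4% of all genes in the same order. CYP7A1, the rate-setting enzyme, had smaller falls in each with log2 fold changes ± SE of -0.47 ± 0.12, -0.57 ± 0.15 and -0.75 ± 0.15 in the same order. CYP27A1 had log2 fold changes ± SE of -0.25 ± 0.063, -0.38 ± 0.071 and -0.18 ± 0.06, the last of which lost its call by voom (-0.069, adjusted p = 0.331) and without deprived control-guide replicate 1 (-0.16, adjusted p = 0.0593).

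BAAT, the conjugating enzyme, did not keep 1 direction. It was 10.2, 14.2 and 11.9 TPM in controls and 3.8, 4.25 and 4.21 in deprived cells of the IDO/TDO inhibitor experiment (log2 fold change -1.36, SE 0.12, adjusted p = 8.05e-08) and 7.68, 9.69 and 5.58 TPM against 3.64, 3.15 and 2.21 TPM in the guide RNA experiment (log2 fold change -1.1, SE 0.18, adjusted p = 0.000139). In the AhR inhibitor experiment control cells held only 1.94, 2.25 and 2.28 TPM and deprived cells 2.77, 2.65 and 2.89 (log2 fold change 0.26, SE 0.095, adjusted p = 0.0305). Quantile normalization ended that rise (0.053, adjusted p = 0.659), as did leaving out control replicate 1 or deprived replicate 1 or 3 (adjusted p 0.0648 to 0.104). The difference between experiments was not tested, as each table was fitted on its own. SLC27A5 fell in the IDO/TDO inhibitor (log2 fold change -0.37, SE 0.13, adjusted p = 0.0174) and AhR inhibitor experiments (log2 fold change -0.43, SE 0.11, adjusted p = 0.00474) and did not pass with the control guide RNA (log2 fold change 0.033, SE 0.11, adjusted p = 0.811). The first of these calls was lost without control replicate 1 or deprived replicate 2 (adjusted p 0.0683 to 0.0996; -0.24, adjusted p = 0.0996 without that control).

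NR1H4 went up where the time course had it down: 13.0, 16.7 and 18.5 TPM in controls and 24.9, 28.7 and 26.1 in deprived cells of the IDO/TDO inhibitor experiment (log2 fold change 0.7, SE 0.13, adjusted p = 0.000183), and 16.4, 15.4 and 21.6 TPM against 24.9, 22.6 and 22.7 TPM in the guide RNA experiment (log2 fold change 0.39, SE 0.11, adjusted p = 0.00583). The latter did not pass after quantile normalization (0.2, adjusted p = 0.0901), and in the AhR inhibitor experiment it missed the threshold (log2 fold change 0.41, SE 0.17, adjusted p = 0.0515) except after rescaling (0.52, adjusted p = 0.0198) or by voom (0.49, adjusted p = 0.0328). NR0B2, the FXR target that represses synthesis, fell in the IDO/TDO inhibitor (log2 fold change -0.32, SE 0.065, adjusted p = 0.000357) and AhR inhibitor experiments (log2 fold change -0.75, SE 0.087, adjusted p = 8.88e-06) and did not pass in the guide RNA experiment (log2 fold change 0.051, SE 0.048, adjusted p = 0.379) except by voom (0.16, adjusted p = 0.0115).

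With the IDO/TDO inhibitor present, deprivation changed 1 of 7 genes instead of 7 (limma, 3 at an unadjusted p under 0.05, and 2 by voom, both lower). Groups did not overlap for 3 of 7, as for 19.5% of all genes. A member without a call was therefore not necessarily at its control level. CYP8B1 and BAAT of deprived cells then overlapped with their controls. The CYP8B1 values were 2.55, 2.95 and 2.92 TPM in controls and 2.7, 2.6 and 2.58 in deprived cells, which overlapped (log2 fold change -0.066, SE 0.11, adjusted p = 0.879). The BAAT values were 13.7, 12.6 and 11.1 TPM in controls and 9.93, 13.0 and 9.66 in deprived cells, which also overlapped (log2 fold change -0.19, SE 0.12, adjusted p = 0.602). Of all genes 0.532% were lower and 0.854% higher (0.654% higher and 0.628% lower after quantile normalization). Only CYP7A1 passed, being lower (2.4, 3.21 and 2.5 TPM against 1.48, 1.21 and 2.01 TPM, log2 fold change -0.53, SE 0.12, adjusted p = 0.0343). That call was lost with no filter (-0.53, adjusted p = 0.119) and without any 1 of 5 of the 6 libraries, deprived replicate 3 being the exception (adjusted p 0.0559 to 0.193).

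The difference between the deprivation effects with and without this inhibitor passed for 4 of 7, beside 53.7% of all genes. It was 1.42, SE 0.15, adjusted p = 1.19e-06 for CYP8B1, 1.17, SE 0.17, adjusted p = 3.71e-05 for BAAT and -1.14, SE 0.18, adjusted p = 0.000102 for NR1H4. NR0B2 differed by 0.27, SE 0.092, adjusted p = 0.0226, which was lost with no filter (0.27, adjusted p = 0.0515), by voom (0.18, adjusted p = 0.114) and without deprived replicate 3 or control-with-inhibitor replicate 2 (adjusted p 0.0586 to 0.0677). Within deprived cells the inhibitor changed 5 of 7 (all genes: 65.7%), raising CYP8B1 (log2 fold change 1.44, SE 0.11, adjusted p = 7.85e-09) and BAAT (log2 fold change 1.21, SE 0.12, adjusted p = 3.02e-07) and lowering NR1H4 (log2 fold change -1.12, SE 0.13, adjusted p = 2.09e-06). NR0B2 (log2 fold change 0.2, SE 0.065, adjusted p = 0.0127) and CYP27A1 (log2 fold change 0.16, SE 0.063, adjusted p = 0.0328) rose by less. NR0B2 lost its call by voom (0.11, adjusted p = 0.181) and without deprived replicate 3 (0.17, adjusted p = 0.0557). CYP27A1 lost its call after rescaling (0.14, adjusted p = 0.0847), with no filter (0.16, adjusted p = 0.0535), by voom (0.07, adjusted p = 0.303) and without deprived replicate 2 or 3 or deprived-with-inhibitor replicate 1 or 3 (adjusted p 0.0595 to 0.118). In control cells the inhibitor changed 0 of 7 (limma, 0 at an unadjusted p under 0.05 and 0 by voom), beside 0.00872% of genes. Hepatocyte markers followed: with the inhibitor their sum was 35794 to 36638 TPM in controls and 32668 to 33149.8 in deprived cells, and 1 of 8 was lower. The share of the members' differences that goes with them was not tested.

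**Figure D3:**
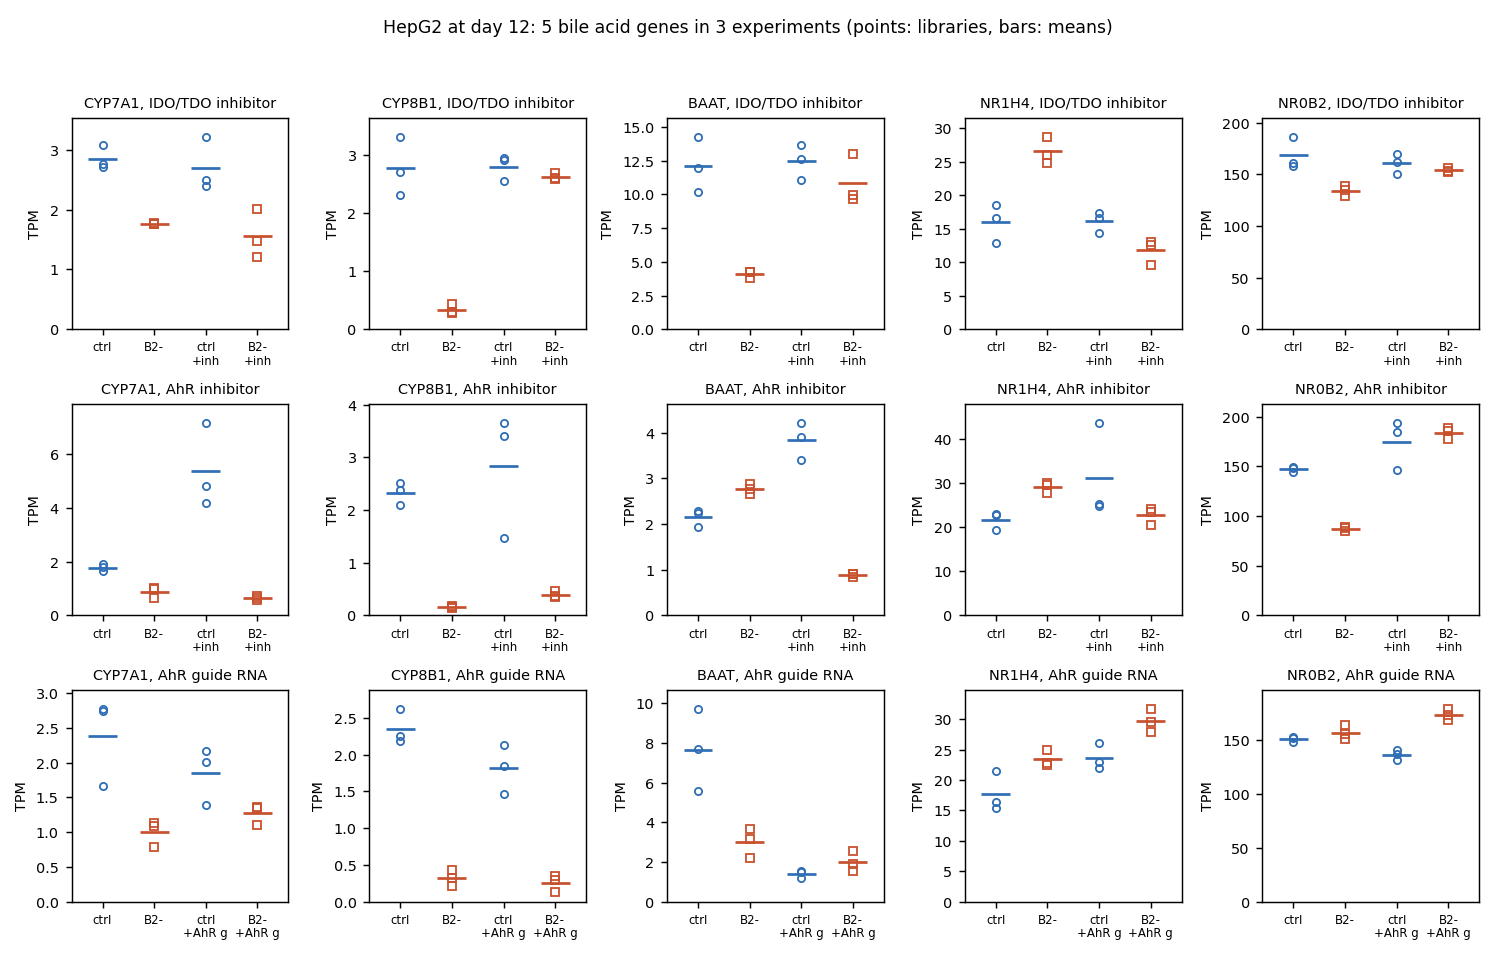
TPM (y axis) of members at day 12 in the IDO/TDO inhibitor, AhR inhibitor and guide RNA experiments, 1 point per library and a bar at each group mean, for control and deprived cells without and with the modulator. The deprived CYP8B1 libraries with the IDO/TDO inhibitor lie among the controls, while those with the AhR inhibitor or the AhR guide RNA lie below their controls.

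With the AhR inhibitor, 4 of 7 members fell in deprived cells, against 12.4% of genes lower and 45.1% higher (26.6% higher and 22.9% lower after quantile normalization). CYP7A1 was 4.17, 4.82 and 7.14 TPM in controls and 0.647, 0.578 and 0.735 in deprived cells with the inhibitor (log2 fold change -1.92, SE 0.15, adjusted p = 2.63e-07). BAAT was 3.4, 4.21 and 3.91 TPM in controls and 0.904, 0.916 and 0.836 in deprived cells (log2 fold change -1.36, SE 0.095, adjusted p = 1.04e-07), and CYP8B1 3.41, 3.65 and 1.48 TPM against 0.376, 0.343 and 0.458 TPM (log2 fold change -1.41, SE 0.18, adjusted p = 2.73e-05). Control replicate 3, the library that stood apart, was the highest of its group for CYP7A1 and the lowest for CYP8B1. Without it the 3 falls were -1.73, adjusted p = 8.18e-08 for CYP7A1, -1.34, adjusted p = 1.99e-07 for BAAT and -1.7, adjusted p = 3.19e-08 for CYP8B1. CYP27A1 fell as well (log2 fold change -0.2, SE 0.071, adjusted p = 0.0256), a call lost after rescaling (-0.18, adjusted p = 0.0501), by voom (-0.13, adjusted p = 0.0873) and without control-with-inhibitor replicate 2 or deprived-with-inhibitor replicate 1 or 3 (adjusted p 0.0519 to 0.0979). NR1H4 did not pass (log2 fold change -0.4, SE 0.17, adjusted p = 0.0597) except after quantile normalization (-0.62, adjusted p = 0.00337) and without control-with-inhibitor replicate 1 or 2 (adjusted p 0.0233 to 0.0275). Without replicate 3 of that group, the library that stood apart, it was -0.14, adjusted p = 0.165.

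The deprivation effects with and without the AhR inhibitor differed for 4 of 7 genes (all genes: 22.5%). CYP7A1 differed by -1.35, SE 0.21, adjusted p = 0.00047, BAAT by -1.61, SE 0.13, adjusted p = 3.5e-06 and NR0B2 by 0.83, SE 0.12, adjusted p = 0.000311. Leaving out the library that stood apart gave -1.16, adjusted p = 0.00018, -1.6, adjusted p = 4.6e-06 and 0.91, adjusted p = 3.91e-05. NR1H4 differed by -0.81, SE 0.24, adjusted p = 0.0287 and, without that library, by -0.55, adjusted p = 0.00328. Its call was lost with no filter (-0.81, adjusted p = 0.0615) and without control replicate 3, deprived replicate 1 or 2, or deprived-with-inhibitor replicate 1 or 2 (adjusted p 0.0525 to 0.0703). CYP8B1 differed by 0.1, SE 0.26, adjusted p = 0.82, and without that library by -0.19, adjusted p = 0.372, of the other sign. The date in the headers moves with the inhibitor in each of these values. In control cells 5 of 7 changed with the inhibitor (all genes: 35.9%). CYP7A1 (log2 fold change 1.17, SE 0.15, adjusted p = 6.68e-05), BAAT (log2 fold change 0.61, SE 0.095, adjusted p = 0.000287), CYP27A1 (log2 fold change 0.33, SE 0.071, adjusted p = 0.00269) and NR0B2 (log2 fold change 0.24, SE 0.087, adjusted p = 0.0481) rose and SLC27A5 fell (log2 fold change -0.42, SE 0.11, adjusted p = 0.011). The NR0B2 call was lost after quantile normalization (0.21, adjusted p = 0.0523), after rescaling (0.22, adjusted p = 0.0619), with no filter (0.24, adjusted p = 0.0958) and without any 1 of 5 of the 6 libraries, control-with-inhibitor replicate 1 being the exception (adjusted p 0.09 to 0.148, and 0.36, adjusted p = 0.000773 without that one). SLC27A5 lost its call without control replicate 2 (-0.3, adjusted p = 0.0533), and CYP8B1 (log2 fold change 0.16, SE 0.18, adjusted p = 0.544) gained one without the library that stood apart (0.45, adjusted p = 0.00538).

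In deprived cells 3 of 7 differed with the inhibitor (all genes: 40.3%), where the date in the headers cannot be told apart from the inhibitor. NR0B2, the repressor of synthesis, was 89.0, 84.7 and 87.9 TPM without and 188, 177 and 186 with it (log2 fold change 1.07, SE 0.087, adjusted p = 1.67e-06). CYP27A1 rose (log2 fold change 0.51, SE 0.071, adjusted p = 9.88e-05) and BAAT fell (log2 fold change -1.0, SE 0.095, adjusted p = 5.12e-06). Hepatocyte markers stayed low: 7 of 8 were lower in deprived cells with the inhibitor, with a sum of 27881 to 32576 TPM in controls and 6953 to 7423 in deprived cells. Their part was not tested.

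With the AhR guide RNA, 5 of 7 genes changed with deprivation, 3 lower and 2 higher (all genes: 15.6% lower and 37.6% higher, 25.2% higher and 23.8% lower after quantile normalization). CYP8B1 was 1.85, 2.14 and 1.46 TPM in controls and 0.342, 0.3 and 0.131 in deprived cells (log2 fold change -1.16, SE 0.13, adjusted p = 4.12e-06), and the deprivation effects with and without the guide RNA differed by 0.18, SE 0.18, adjusted p = 0.543. BAAT was 1.21, 1.5 and 1.53 TPM against 1.56, 2.57 and 1.87 TPM (log2 fold change 0.3, SE 0.18, adjusted p = 0.175), where all 6 libraries lay below the control-guide controls. SLC27A5, which activates bile acids for BAAT, was 7.02, 6.36 and 6.33 TPM against 4.55, 3.56 and 4.09 TPM (log2 fold change -0.58, SE 0.11, adjusted p = 0.000594). CYP27A1 fell (log2 fold change -0.39, SE 0.06, adjusted p = 0.000105) and NR0B2 rose (log2 fold change 0.34, SE 0.048, adjusted p = 4.8e-05). NR1H4 rose (log2 fold change 0.31, SE 0.11, adjusted p = 0.0235), a call ended by quantile normalization (0.19, adjusted p = 0.124), with no filter (0.31, adjusted p = 0.0555) and without AhR-guide control replicate 2 or 3 or AhR-guide deprived replicate 1 or 3 (adjusted p 0.0524 to 0.0894). CYP7A1 missed the threshold (log2 fold change -0.32, SE 0.15, adjusted p = 0.088) and passed after quantile normalization (-0.47, adjusted p = 0.0176) or without AhR-guide control replicate 2 (-0.44, adjusted p = 0.0326). Hepatocyte markers were 7 of 8 lower and 1 higher, with sums of 21998 to 23094 TPM in controls and 9070.4 to 9468 in deprived cells. Their part was not tested.

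The AhR guide RNA itself changed 5 of 7 members in control cells (all genes: 36.7%) and 0 of 7 in deprived cells (all genes: 12.0%). In deprived cells 3 were at an unadjusted p under 0.05, and voom called 1, NR1H4 (0.34, adjusted p = 0.00237). In controls BAAT was lower with the AhR guide RNA (log2 fold change -1.82, SE 0.18, adjusted p = 6.55e-06), while SLC27A5 (log2 fold change 0.61, SE 0.11, adjusted p = 0.000787), NR1H4 (log2 fold change 0.41, SE 0.11, adjusted p = 0.00853) and CYP27A1 (log2 fold change 0.3, SE 0.06, adjusted p = 0.00154) were higher. NR0B2 was slightly lower (log2 fold change -0.15, SE 0.048, adjusted p = 0.0261), lost by voom (-0.058, adjusted p = 0.442) and without control-guide control replicate 2 or AhR-guide control replicate 2 or 3 (adjusted p 0.0603 to 0.107). CYP7A1 did not pass (log2 fold change -0.24, SE 0.15, adjusted p = 0.234) except without control-guide control replicate 2 (-0.41, adjusted p = 0.0418). The difference of deprivation effects passed for 3 of 7 (all genes: 14.4%): BAAT by 1.41, SE 0.25, adjusted p = 0.0028, SLC27A5 by -0.62, SE 0.16, adjusted p = 0.0186 and NR0B2 by 0.29, SE 0.069, adjusted p = 0.0119. SLC27A5 lost it without AhR-guide control replicate 1 (-0.57, adjusted p = 0.0504), NR0B2 lost it by voom (0.21, adjusted p = 0.0561), and CYP27A1 (-0.21, SE 0.085, adjusted p = 0.111) passed by voom (-0.31, adjusted p = 0.00668).

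Kyn raised BAAT and CYP8B1, which had the largest falls of the 7 under deprivation in the time course, and lowered NR1H4, so 3 of 7 passed. Of all genes 6.11% were higher and 5.54% lower. BAAT was 30.2, 33.5 and 35.5 TPM under DMSO and 55.6, 60.3 and 66.2 under Kyn, with no overlap, as for 32.6% of all genes (log2 fold change 0.86, SE 0.088, adjusted p = 3.78e-05). CYP8B1 was 1.74, 2.11 and 1.88 TPM under DMSO and 4.15, 4.68 and 3.7 under Kyn (log2 fold change 0.83, SE 0.13, adjusted p = 0.00115). The receptor NR1H4 was 17.8, 15.4 and 17.6 TPM against 12.3, 10.4 and 12.0 TPM (log2 fold change -0.52, SE 0.084, adjusted p = 0.00152). NR0B2 missed the threshold (log2 fold change -0.21, SE 0.068, adjusted p = 0.0573) and passed after quantile normalization (-0.23, adjusted p = 0.0344), by voom (-0.2, adjusted p = 0.0452) and without DMSO replicate 3 or Kyn replicate 3 (adjusted p 0.0386 to 0.0393). Hepatocyte markers did not move 1 way, with 2 of 8 higher and 3 lower and sums of 17801 to 18339.7 TPM under DMSO and 17238 to 18214 under Kyn.

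**Figure D4:**
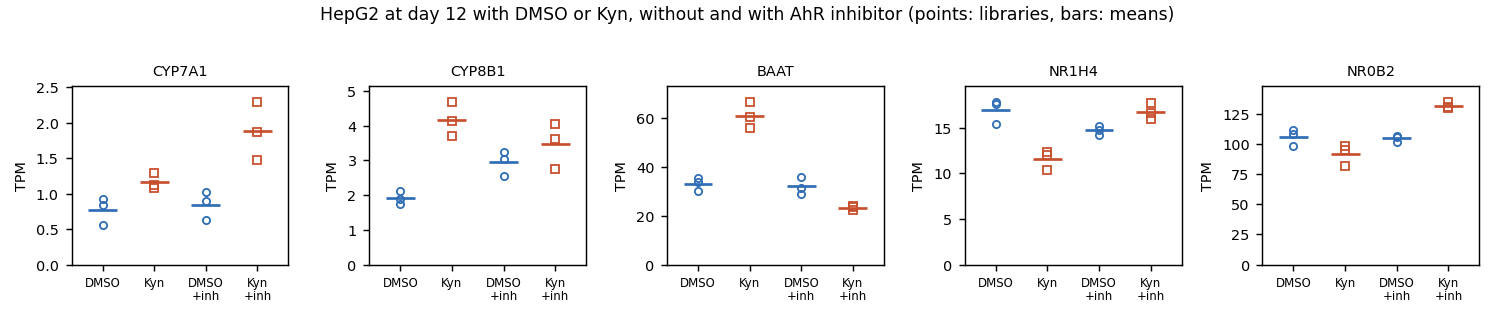
TPM (y axis) of members in HepG2 under DMSO or Kyn, without and with the AhR inhibitor, 1 point per library and a bar at each group mean. BAAT is highest under Kyn alone, at 55.6 to 66.2 TPM, and lowest under Kyn with the inhibitor, at 22.1 to 23.9 TPM.

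With the AhR inhibitor, Kyn gave another pattern, with 2 genes higher and 1 lower (all genes: 1.74% higher and 9.10% lower, 2.74% higher and 3.6% lower after quantile normalization and 3.14% higher and 7.33% lower by voom). BAAT was 28.8, 31.4 and 35.6 TPM under DMSO and 22.1, 23.9 and 23.4 under Kyn, now lower (log2 fold change -0.44, SE 0.088, adjusted p = 0.00633). NR0B2 was 106, 107 and 102 TPM against 130.3, 131 and 135 TPM, now higher (log2 fold change 0.33, SE 0.068, adjusted p = 0.00742). CYP7A1 was 0.892, 1.01 and 0.621 TPM against 2.29, 1.48 and 1.86 TPM (log2 fold change 0.64, SE 0.15, adjusted p = 0.0165), a call lost without DMSO-with-inhibitor replicate 3 or Kyn-with-inhibitor replicate 1 or 3 (adjusted p 0.0502 to 0.0725). SLC27A5 missed the threshold (log2 fold change -0.45, SE 0.15, adjusted p = 0.0684) and passed without DMSO-with-inhibitor replicate 3 (-0.62, adjusted p = 0.0152). Of the hepatocyte markers 5 of 8 were higher and none lower in this comparison, with sums of 17684 to 18219.8 TPM under DMSO and 21239 to 22116 under Kyn. Their part was not tested.

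The Kyn effects with and without the inhibitor differed for 4 of 7 genes (all genes: 8.94%): BAAT by -1.3, SE 0.12, adjusted p = 2.73e-05, NR1H4 by 0.69, SE 0.12, adjusted p = 0.00307, NR0B2 by 0.54, SE 0.1, adjusted p = 0.00367 and CYP8B1 by -0.65, SE 0.18, adjusted p = 0.0412. The CYP8B1 call was lost after quantile normalization (-0.53, adjusted p = 0.0972), with no filter (-0.65, adjusted p = 0.0865) and without any 1 of 9 of the 12 libraries, the exceptions being Kyn replicate 3 and replicate 1 of both groups with the inhibitor (adjusted p 0.0532 to 0.0927). SLC27A5 (-0.53, SE 0.21, adjusted p = 0.133) passed without DMSO-with-inhibitor replicate 3 (-0.71, adjusted p = 0.0341). In Kyn-treated cells the inhibitor changed 3 of 7 (all genes: 21.9%), lowering BAAT (log2 fold change -1.35, SE 0.088, adjusted p = 2.38e-07) and raising NR1H4 (log2 fold change 0.5, SE 0.084, adjusted p = 0.000984) and NR0B2 (log2 fold change 0.53, SE 0.068, adjusted p = 0.000136). Under DMSO it changed 0 of 7 (limma, 2 at an unadjusted p under 0.05, 0 by voom), beside 0% of all genes.

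In Caco-2, an intestinal line in which FGF19 is made, 4 of 5 measurable members passed at day 9: CYP27A1 and NR1H4 lower, FGF19 and BAAT higher. Of all genes 19.5% were lower and 14.3% higher. CYP27A1 was 12.2, 12.4 and 10.6 TPM in controls and 5.82, 7.74 and 6.78 in deprived cells, every deprived library below every control, as for 27.4% of all genes (log2 fold change -0.72, SE 0.12, adjusted p = 0.000959). NR1H4 was 1.34, 3.53 and 3.13 TPM against 1.22, 0.539 and 1.01 TPM (log2 fold change -0.89, SE 0.25, adjusted p = 0.0241). This table counts it on transcript NM_001206993, the HepG2 tables on NM_001206977. FGF19, the hormone induced by FXR in the intestine, was 4.14, 6.59 and 6.11 TPM in controls and 10.4, 8.18 and 8.08 in deprived cells (log2 fold change 0.59, SE 0.16, adjusted p = 0.0149), with control replicate 1 the lowest of all 6. NR0B2, which FXR induces in liver, fell under the filter here with at most 0.883 TPM. Its difference in log2(TPM + 1) was -0.39, of the other sign (exact two-sided permutation p = 0.2).

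BAAT was 0.878, 1.34 and 1.22 TPM in Caco-2 controls and 1.95, 2.16 and 1.74 in deprived cells (log2 fold change 0.47, SE 0.15, adjusted p = 0.0312). With no filter on low values BAAT (0.47, adjusted p = 0.0557) and NR1H4 (-0.89, adjusted p = 0.0583) lost their calls. BAAT lost it without any 1 of 5 of the 6 libraries, control replicate 2 being the exception (adjusted p 0.0517 to 0.105). NR1H4 lost it without replicate 2 or 3 of either group (adjusted p 0.0624 to 0.0828), and FGF19 without deprived replicate 1 (0.49, adjusted p = 0.0589). Of the enterocyte markers 4 of 5 tested were lower and 1 higher, with sums of 143 to 150.3 TPM in controls and 89.4 to 95.1 in deprived cells. All 8 hepatocyte markers, which Caco-2 also expresses, were lower (2704 to 2852 and 1542 to 1719 TPM), and the part of either list was not tested.

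In mouse hepatocytes with Ad-Cont, deprivation went with higher Cyp8b1 and Cyp27a1 and lower Nr0b2, whereas CYP8B1 was lower in deprived HepG2. The 2 species were not tested against each other. The 3 calls of 7 stood beside 4.32% of genes higher and 5.46% lower. Cyp8b1 was 1.86, 1.72 and 1.87 TPM in controls and 9.69, 4.05 and 3.4 in deprived cells, with deprived replicate 1 far the highest and no overlap (log2 fold change 1.14, SE 0.27, adjusted p = 0.0168). Without that library the fold change was 0.74, adjusted p = 0.0292. Nr0b2 was 8.64, 7.43 and 9.96 TPM in controls and 4.35, 2.97 and 3.13 in deprived cells (log2 fold change -1.11, SE 0.13, adjusted p = 0.000136). Cyp27a1 was 45.0, 46.5 and 36.5 TPM against 60.4, 50.8 and 51.1 TPM (log2 fold change 0.34, SE 0.095, adjusted p = 0.0364). The Cyp8b1 call was lost without control replicate 2 or 3 (adjusted p 0.0509 to 0.0568). The Cyp27a1 call was lost after quantile normalization (0.31, adjusted p = 0.0544), with no filter (0.34, adjusted p = 0.0729) and without either deprived replicate 1 or 2 or control replicate 1 or 3 (adjusted p 0.0523 to 0.149). Slc10a1, the uptake carrier, was 1.71, 1.5 and 0.836 TPM against 3.2, 2.27 and 1.86 TPM, without overlap, as for 28.7% of all genes, but not called (log2 fold change 0.55, SE 0.2, adjusted p = 0.096). Markers of cholangiocytes (2 of 4 tested), macrophages (2 of 3) and stellate cells or fibroblasts (2 of 4) were lower in these deprived cultures. The summed cholangiocyte markers, Spp1 among them, were 833 to 931 TPM in controls and 256 to 589 in deprived cultures, the stellate and fibroblast markers 21.6 to 23.3 and 9.33 to 19.4, and the macrophage markers 179 to 193 and 126 to 209. Their part in the members' values was not tested. Hepatocyte markers were 3 of 8 higher and 2 lower, with sums of 16416 to 17064 and 15094 to 17016 TPM.

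With Ad-Cre 0 of 7 passed (limma, 2 at an unadjusted p under 0.05, 0 by voom), beside 0.214% of genes higher and 0.115% lower (0.444% higher and 0.477% lower by voom). Cyp8b1 was nonetheless 0.991, 1.33 and 0.644 TPM in controls and 3.88, 3.07 and 2.35 in deprived cells, without overlap, as for 16.9% of all genes (log2 fold change 1.04, SE 0.27, adjusted p = 0.152), and the deprivation effects with and without Ad-Cre differed by -0.1, SE 0.38, adjusted p = 0.945. Nr0b2 was 6.04, 6.08 and 5.46 TPM against 5.06, 4.97 and 5.51 TPM (log2 fold change -0.15, SE 0.13, adjusted p = 0.774), and its 2 effects differed by 0.96, SE 0.19, adjusted p = 0.054. That difference passed without Ad-Cont deprived replicate 1 (1.1, adjusted p = 0.0072) or Ad-Cre control replicate 3 (0.92, adjusted p = 0.0474). Differences passed for 0 of 7 (limma, 1 at an unadjusted p under 0.05, 0 by voom) and for 0.247% of genes. No marker list had a called gene with Ad-Cre, but the sums of cholangiocyte markers (924 to 1116 TPM in controls and 658 to 759 in deprived cultures), stellate and fibroblast markers (25.3 to 29.5 and 17.1 to 23.5) and endothelial markers (11.3 to 15.2 and 7.87 to 9.37) did not overlap and were lower in deprived cultures. Their part in the Cyp8b1 values was not tested. Ad-Cre itself changed 0 of 7 in control cells (1 unadjusted, 0 by voom; all genes 0.0247%) and 0 of 7 in deprived cells (2 unadjusted, 0 by voom; all genes 1.03%). In deprived cells Nr0b2 (log2 fold change 0.48, SE 0.13, adjusted p = 0.123) passed without Ad-Cont deprived replicate 1 (0.61, adjusted p = 0.0346).

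**Figure D5:**
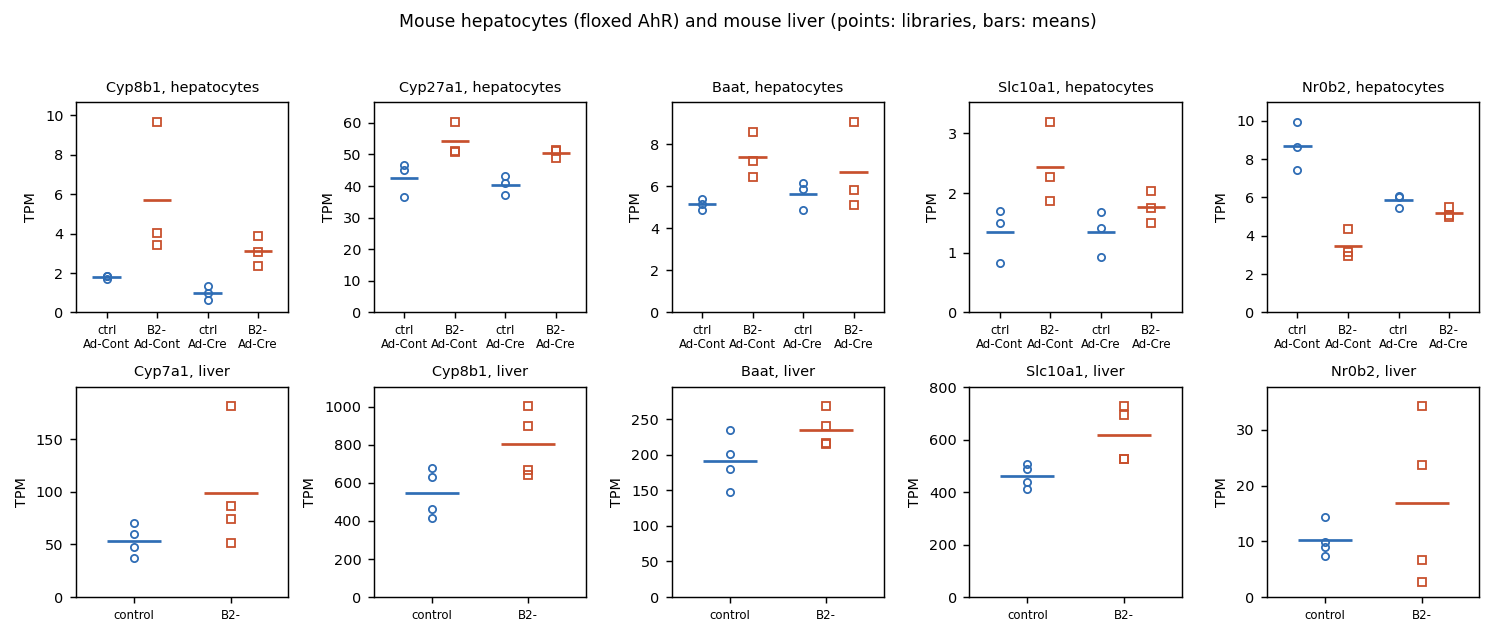
TPM (y axis) of the mouse members in hepatocytes (control and deprived, with Ad-Cont and Ad-Cre) and in liver (control and deprived), 1 point per library and a bar at each group mean. Cyp8b1 stands at 3.4 to 9.69 TPM in deprived hepatocytes and 1.72 to 1.87 in controls with Ad-Cont, where it passed the test, and at 2.35 to 3.88 and 0.644 to 1.33 with Ad-Cre, where it did not; in liver its groups overlap.

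Whole liver, where both transporters are expressed, gave 0 calls among 9 measurable members (limma, 2 at an unadjusted p under 0.05, 0 by voom), beside 2.25% of genes higher and 1.16% lower (0.832% higher and 1.37% lower after quantile normalization, which moved the median of all genes from 0.14 to 0.016, and 1.33% higher and 1.46% lower by voom). Slc10a1 was 440.4, 413, 488 and 506 TPM in controls and 728, 695, 525 and 528 in deprived livers, the only member of 9 whose groups did not overlap, as was so for 14.9% of all genes (log2 fold change 0.41, SE 0.14, adjusted p = 0.111). Cyp8b1 was 679, 417, 462 and 633 TPM against 641, 1004, 900.4 and 666 TPM, overlapping (log2 fold change 0.55, SE 0.19, adjusted p = 0.11). Cyp7a1 was 36.8, 47.3, 59.7 and 70.3 TPM against 181, 74.1, 86.7 and 51.7 TPM (log2 fold change 0.75, SE 0.38, adjusted p = 0.257), and Nr0b2 9.93, 8.96, 14.4 and 7.4 TPM against 23.8, 6.7, 2.63 and 34.2 TPM (log2 fold change 0.2, SE 0.72, adjusted p = 0.888), with a deprived range on both sides of the controls. Abcb11, the bile salt export pump, was 38.8, 46.4, 37.1 and 46.7 TPM against 50.2, 34.8, 33.2 and 46.7 TPM (log2 fold change -0.05, SE 0.15, adjusted p = 0.866). None of the marker lists had a called gene in liver. Columns of this table carry no replicate number, and 8 of the 10 labelled liver samples have a column.

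Several members lay at or near 0. In the 72 HepG2 libraries SLC10A1 reached at most 0.717 TPM (9 reads), ABCB11 0.299 TPM (15 reads) and FGF19 0.335 TPM (9 reads). FGF19 was 0.136, 0.268 and 0.294 TPM in day 12 controls and 0.028, 0 and 0 in deprived cells of the time course (difference in log2(TPM + 1) -0.29, exact two-sided permutation p = 0.1, the smallest that 3 against 3 allows). In Caco-2, CYP7A1 had 0 reads in all 6 libraries, where up to 3 reads a library would be allowed by counting error, and CYP8B1 had 1 to 4 reads. SLC10A1, ABCB11 and NR0B2 were also under the filter there, with at most 7, 6 and 9 reads. Fgf15 had 0 reads in all 8 livers and at most 1 in mouse hepatocytes, where Cyp7a1 had at most 4. Abcb11, measurable in liver, had 7 to 19 reads in these hepatocytes (0.269 to 0.701 TPM). Fgf15, Cyp7a1 and Abcb11 were under the filter in hepatocytes and are not among the 7 tested there.

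Other genes of bile acid metabolism were taken from a fixed list of 48 human and 51 mouse names (further synthesis enzymes, transporters, conjugating and hydroxylating enzymes, regulators). At day 12 of the time course 10 of 36 tested were higher and 16 lower (median 0.1 over all genes and -0.039 over the list), where 34.0% of all genes were higher and 18.4% lower. Before that came 2 rises and 0 falls on day 3 (2.74% and 2.00% of all genes), 8 rises and 5 falls on day 6 (19.0% and 14.0%), and 9 rises and 13 falls on day 9 (29.4% and 19.7%). ABCC3, which exports bile acids to blood, rose in the 4 experiments: from 1.83 to 8.42 TPM, log2 fold change 1.75, SE 0.13, adjusted p = 7.75e-11 in the time course, and from 1.19 to 13.3 TPM, log2 fold change 2.71, SE 0.11, adjusted p = 4.04e-12 in the IDO/TDO inhibitor experiment. ABCB4, which moves phospholipid into bile, fell from 11.5 to 2.87 TPM, log2 fold change -1.69, SE 0.12, adjusted p = 3.8e-11 in the time course. SLC51A, a subunit of the basolateral bile acid exporter, fell from 17.1 to 2.72 TPM, log2 fold change -2.29, SE 0.11, adjusted p = 6.78e-11 in the IDO/TDO inhibitor experiment and from 14.5 to 2.46 TPM, log2 fold change -2.17, SE 0.1, adjusted p = 5.8e-10 in the guide RNA experiment. UGT2B4, which glucuronidates bile acids, fell from 19.3 to 6.3 TPM, log2 fold change -1.47, SE 0.14, adjusted p = 1.34e-08 in the time course. The first transcripts to move were MAFG, a repressor of synthesis genes (20.1 to 28.5 TPM, log2 fold change 0.49, SE 0.073, adjusted p = 0.000207), and ABCC2, a canalicular exporter (24.0 to 33.4 TPM, log2 fold change 0.46, SE 0.059, adjusted p = 3.05e-05), both higher at day 3.

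Across the other day 12 comparisons the list gave 10 higher and 13 lower of 35 without the IDO/TDO inhibitor (53.6% and 14.3% of all genes) and 0 and 1 with it (0.854% and 0.532%). It gave 9 and 15 of 37 without the AhR inhibitor (44.6% and 16.9% of all genes) and 11 and 17 with it (45.1% and 12.4%). With the control guide RNA it gave 9 and 14 of 34 (43.6% and 17.1%) and with the AhR guide RNA 9 and 9 (37.6% and 15.6%). Kyn changed 3 upward and 5 downward of 33 (6.11% and 5.54% of all genes), SLC51A from 15.6 to 6.93 TPM, log2 fold change -1.06, SE 0.1, adjusted p = 1.09e-05. With the inhibitor it changed 6 upward and 1 downward (1.74% and 9.10%), SLC51A from 12.8 to 19.4 TPM, log2 fold change 0.56, SE 0.1, adjusted p = 0.00279. SULT2A1, which sulfates bile acids, fell under Kyn from 85.8 to 44.7 TPM, log2 fold change -0.93, SE 0.058, adjusted p = 2.12e-07. Caco-2 had 2 higher and 15 lower of 27 (14.3% and 19.5% of all genes), led by AMACR, a peroxisomal enzyme of side-chain shortening (13.9 to 5.31 TPM, log2 fold change -1.24, SE 0.12, adjusted p = 3.18e-05). In mouse hepatocytes 3 rose and 1 fell of 40 with Ad-Cont (4.32% and 5.46% of all genes), among them Slc10a2, the apical uptake carrier (3.14 to 5.96 TPM, log2 fold change 0.74, SE 0.16, adjusted p = 0.00927), and 1 rose and 0 fell with Ad-Cre (0.214% and 0.115%). Liver had 3 higher and 4 lower of 43 (2.25% and 1.16% of all genes). Slco1a1, an uptake carrier, fell from 138 to 21.9 TPM, log2 fold change -2.74, SE 0.49, adjusted p = 0.037, Slco1a4, a related carrier, rose from 26.2 to 113 TPM, log2 fold change 2.08, SE 0.32, adjusted p = 0.0179, and Cyp7b1, of the acidic route, fell from 87.9 to 23.6 TPM, log2 fold change -1.9, SE 0.27, adjusted p = 0.00978.

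Over the 24 time course libraries, the gene whose log2(TPM + 1) pattern was most like BAAT was YPEL3 (Pearson r 0.955, across libraries that share day and medium), and for CYP8B1 it was AFP (0.949), among genes averaging at least 10 TPM. HULC was most like CYP7A1 (0.918), RBP4 most like NR1H4 (0.911), LMF2 most like CYP27A1 (0.883) and TMEM150A most like NR0B2 (0.879). SLC27A5 had no gene above 0.721 (GOPC).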

How the data were processed

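RNA was read from its 3' ends with a QuantSeq kit, per the labels' protocols, in 98 libraries of 8 tables. The liver columns are headed by run names of a public archive and lack the trimming mark of the others. Whether the same kit and trimming hold for them is therefore not certain. The authors deposited TPM for 1 RefSeq transcript per gene symbol, per the file headers, with STAR, HOMER and Bowtie2 and builds hg38 and mm10 named without a role or version in the submitters' processing notes. The listed genes sum to less than the TPM total, so a shift in other counted entries moves every listed value, which the rescaling alternative removes. In each table the low TPM values were whole multiples of 1 read (within 0.1 read), which gave the depth: 6067600 to 7671300 reads per library for guide RNA, 6263500 to 7810000 for mouse hepatocytes, 5891600 to 19427900 for AhR inhibitor, 5213400 to 6518000 for Caco-2, 6827700 to 11040400 for the time course, 11958300 to 14258000 for IDO/TDO inhibitor, 4049600 to 5822600 for Kyn and 13915000 to 19644000 for liver. Reads carry no stated molecular identifiers, so read counts cover counting error only. Replicate pairs (102) were compared and none agreed within sampling noise.

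Genes with at least 1 TPM in 3 libraries (4 for liver) were kept, and each table was fitted on its own with limma 3.58.1 in R 4.3.3 on log2(TPM + 1), a group-means model over all its groups, with trended and robust moderation. Tests were two-sided, and p-values were adjusted by Benjamini-Hochberg over all genes tested in a comparison, with a threshold of 0.05. A fold change on this scale understates the change of low genes. Comparisons within a table share control libraries. Genes under the filter got an exact permutation test. The alternatives were quantile normalization, rescaling the listed genes to a common total, a pseudocount of 0.1, no filter, limma voom on recovered reads, the replicate number as a block, and leaving out each library. The named genes are the 10 members and, from the list of other bile acid genes, up to 3 per comparison with the largest change among those past the threshold and averaging 2 TPM in a group, of which the text prints some. The members, lists and tests were chosen with earlier results of these data known. The fit was also run on simulated data with a single comparison per table, few changed genes and a single assumed spread. Many comparisons here had far more genes called, so that run does not vouch for the calls given. Tables were prepared in Python 3.11.15 with pandas 2.3.3.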

Additional observations from a re-analysis of the deposited data

Results flagged for a closer look

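Of 42 differences between effects (6 comparisons, 7 genes each) 20 passed the test of the difference itself (limma, Benjamini-Hochberg over all genes), and no liver value of 18 tested groups stood far from the others. Between day 12 and day 3 of the time course the deprivation effect changed by -2.20 for BAAT, -0.93 for CYP8B1, -0.52 for CYP7A1, -0.48 for NR0B2 and -0.26 for CYP27A1 on the log2 scale. Of all genes 37.7% passed in that comparison, 53.7% with the IDO/TDO inhibitor, 22.5% with the AhR inhibitor, 14.4% with the AhR guide RNA, 8.94% for Kyn and 0.247% with Ad-Cre, where no member passed. With the IDO/TDO inhibitor it changed by 1.42 for CYP8B1, 1.17 for BAAT, 0.27 for NR0B2 and -1.14 for NR1H4. With the AhR inhibitor, where the date in the headers and the inhibitor cannot be told apart, it changed by -1.61 for BAAT, -1.35 for CYP7A1, -0.81 for NR1H4 and 0.83 for NR0B2. With the AhR guide RNA it changed by 1.41 for BAAT, -0.62 for SLC27A5 and 0.29 for NR0B2. The Kyn effect changed with the AhR inhibitor by -1.30 for BAAT, -0.65 for CYP8B1, 0.69 for NR1H4 and 0.54 for NR0B2. BAAT passed in all 5 of these HepG2 comparisons, with both signs, and NR0B2 passed in all 5 too.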

How the results depend on the processing

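Of 3624 recomputed single values (280 values under each alternative), 3314 kept their direction and their side of the threshold and 117 with no call in either fit changed sign (reported sizes up to 0.199). A further 152 lost the call, 40 gained one and 1 called value turned: CYP27A1 in controls from day 3 to day 12, 0.12 after quantile normalization (adjusted p = 0.0976). Of 102 called member values, 21 moved by over 1.5 times with a pseudocount of 0.1, 20 after quantile normalization, 7 after rescaling and 31 by voom, and 3 of 732 on leaving out a library. Of 638 recomputed counts of called genes 587 stayed within 1.5 times and 51 moved; the cause was not tested. Member counts moved as follows. Quantile normalization gave 4 at day 9. Rescaling and voom each gave 3 for the difference of day 12 and day 3. No filter gave 2 in Caco-2 and 0 for deprivation with the IDO/TDO inhibitor. Voom gave 2 there, 3 for that inhibitor in deprived cells and 1 for the AhR guide RNA in deprived cells. For the other bile acid genes no filter gave 0 with Ad-Cre, 0 with the IDO/TDO inhibitor and 4 in liver, and voom gave 2 with Ad-Cre and 4 with the IDO/TDO inhibitor.

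Leaving out 1 library moved member counts over these ranges: 1 to 3 in mouse hepatocytes with Ad-Cont, 0 to 1 for Ad-Cre in deprived cells, 0 to 1 for the difference with Ad-Cre, 3 to 6 for the AhR inhibitor in controls, 2 to 3 in Caco-2, 0 to 1 at day 3, 3 to 5 for the difference of day 12 and day 3, 0 to 1 with the IDO/TDO inhibitor and 3 to 5 for that inhibitor in deprived cells. Other bile acid genes ranged from 2 to 5 with Ad-Cont, 0 to 0 with Ad-Cre, 0 to 1 with the IDO/TDO inhibitor, 4 to 5 for Kyn with the AhR inhibitor and 2 to 9 in liver.

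Same-numbered samples did not deviate together in every pair (correlations of deviations between -0.11 and 0.19 over the tables). A pairing by replicate number was therefore not seen, but weak correlations cannot exclude one, and the labels do not state it. With the replicate number as a block 46 of 48 counts stayed within 1.5 times; other bile acid genes went to 0 with Ad-Cre and 0 with the IDO/TDO inhibitor. The block ended the calls of NR0B2 for the AhR inhibitor in controls (adjusted p = 0.0617), NR1H4 in Caco-2 (0.0503), Ugt2b5 with Ad-Cre (0.0625) and SLC27A2 for Kyn with the inhibitor (0.0648). No paired analysis was possible for liver because its columns carry no replicate number.

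Depth limits CYP8B1, CYP7A1 and SLC27A5 in HepG2, and in Caco-2 NR1H4 and BAAT, which have few reads, and with 3 libraries a group small differences can be missed.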
